A study of Mus musculus with 14 samples.

Results

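The 8 genes described here carry the names of developmental pluripotency-associated (Dppa) and preferentially-expressed-antigen-in-melanoma-like (Pramel) genes, together with Tcl1 and Crxos, which are likewise expressed in embryonic stem cells (ESCs). They were chosen by symbol (Dppa2, Dppa3, Dppa4, Dppa5a, Pramel6, Pramel7, Tcl1 and Crxos) among 41204 genes with an FPKM value, the fragments per kilobase of transcript scaled to the mapped fragments. All 8 passed the filter of a mean above 0.2 FPKM and were tested among 15430 genes. They were chosen with earlier results of these data known, so counts set against all genes below are descriptions.

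Poly(A) RNA was sequenced from mouse ESCs of a C57BL/6 by 129/sv cross, in 4 groups of 2 samples. All groups were grown on gelatin in N2B27 with 1 μM of the MEK inhibitor PD0325901 and 1000 units per ml of leukemia inhibitory factor (LIF). In 2i+LIF the medium also held 3 μM of CHIR99021, which inhibits GSK3 and so stabilizes beta-catenin. PD+LIF cells spent 24 h in 2i+LIF and then 4 days without CHIR99021. How long the 2i+LIF samples were cultured after plating is not stated, so medium and time in culture cannot be told apart. Each medium was used for wild-type ESCs and for Trincr1-/- ESCs, in which a pair of CRISPR guides removed part of Trincr1, a long noncoding RNA that binds the RNA-binding protein TRIM71. The labels do not say which knockout clone was sequenced, nor whether the 2 samples of a group were separate cultures, so p-values measure the spread between these samples, which may be technical. In a second experiment RNA pulled down with FLAG-tagged TRIM71 was sequenced from UV-crosslinked ESCs in 2i+LIF that overexpressed the tagged protein.

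Several of these genes act on the DNA methylation of early embryos. DPPA3, also called Stella, protects methylation marks in the zygote and keeps the maintenance factor UHRF1 from acting on chromatin, and PRAMEL7 directs UHRF1 to degradation with a Cullin-2 ubiquitin ligase. DPPA2 and DPPA4 are a pair of SAP-domain proteins that bind chromatin together and keep developmental promoters free of methylation. DPPA5A is an RNA-binding protein with a KH-type domain, TCL1 is a coactivator of the AKT kinases, and Crxos encodes a homeobox protein beside the photoreceptor factor gene Crx.

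The genes lie at 6 loci. Dppa4 and Dppa2 are neighbours on the plus strand of chromosome 16 (48283735 to 48294292 and 48310477 to 48319723, GRCm38), 16184 bases apart. Pramel7 (87489087 to 87497093, minus strand) and Pramel6 (87506565 to 87510872, plus strand) are 9471 bases apart on chromosome 2. Dppa3 is on chromosome 6 (122626410 to 122630272, plus strand), Crxos on chromosome 7 (15882617 to 15904020, plus strand), Dppa5a on chromosome 9 (78367052 to 78368177, minus strand) and Tcl1 on chromosome 12 (105216750 to 105222793, minus strand). All are annotated as protein-coding.

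Promoters of Pramel6 and Crxos are shown first because both genes were more than 10-fold lower in wild type in PD+LIF than in 2i+LIF. The 250 bases before the RefSeq start are given 5′ to 3′ on the gene's strand (GRCm38.p6), with matches to any searched motif in capitals. All 3 Crxos starts are shown. Pramel7, which fell 4.94-fold in wild type and 16.7-fold in Trincr1-/- ESCs, and Tcl1, which gave no call in wild type, follow.
Pramel6 (chr2:87506315-87506564, plus strand): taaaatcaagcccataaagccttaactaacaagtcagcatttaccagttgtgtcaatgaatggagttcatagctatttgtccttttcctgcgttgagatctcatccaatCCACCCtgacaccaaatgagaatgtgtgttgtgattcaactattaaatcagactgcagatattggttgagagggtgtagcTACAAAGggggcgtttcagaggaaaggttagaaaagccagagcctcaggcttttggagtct
Crxos start 1 (chr7:15882367-15882616, plus strand): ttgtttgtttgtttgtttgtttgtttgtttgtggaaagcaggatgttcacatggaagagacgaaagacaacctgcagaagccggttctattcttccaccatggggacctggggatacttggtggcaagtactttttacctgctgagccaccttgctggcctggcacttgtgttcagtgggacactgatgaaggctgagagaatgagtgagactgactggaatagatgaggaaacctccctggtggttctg
Crxos start 2 (chr7:15895874-15896123, plus strand): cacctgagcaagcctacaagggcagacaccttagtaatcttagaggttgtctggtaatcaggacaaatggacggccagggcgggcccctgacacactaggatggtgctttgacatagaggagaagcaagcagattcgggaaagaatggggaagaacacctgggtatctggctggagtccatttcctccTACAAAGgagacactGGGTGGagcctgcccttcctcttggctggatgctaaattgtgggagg
Crxos start 3 (chr7:15901396-15901645, plus strand): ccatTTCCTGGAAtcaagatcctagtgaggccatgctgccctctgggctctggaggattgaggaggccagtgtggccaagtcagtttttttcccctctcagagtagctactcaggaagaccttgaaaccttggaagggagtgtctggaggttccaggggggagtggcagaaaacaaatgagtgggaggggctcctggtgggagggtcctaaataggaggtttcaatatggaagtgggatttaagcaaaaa
Pramel7 (chr2:87492419-87492668, minus strand): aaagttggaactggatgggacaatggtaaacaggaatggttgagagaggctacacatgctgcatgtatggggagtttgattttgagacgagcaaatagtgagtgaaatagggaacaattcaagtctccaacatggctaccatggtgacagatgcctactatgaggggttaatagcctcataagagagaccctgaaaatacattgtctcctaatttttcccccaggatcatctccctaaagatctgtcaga
Tcl1 (chr12:105222738-105222987, minus strand): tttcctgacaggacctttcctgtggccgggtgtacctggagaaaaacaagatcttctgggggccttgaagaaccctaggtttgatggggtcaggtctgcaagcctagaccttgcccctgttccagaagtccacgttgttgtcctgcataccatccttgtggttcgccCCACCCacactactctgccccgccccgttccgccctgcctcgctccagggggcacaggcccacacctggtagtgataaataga

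The motifs were searched on both strands: 4 heptamers of TCF/LEF factors, the partners of beta-catenin (AACAAAG, the related ATCAAAG, then TACAAAG, and last TTCAAAG), the STAT site TTCNNNGAA, the ESRRB site AAGGTCA and the KLF site CCACCC. No motif overlapped another in these windows. The same heptamer, TACAAAG, begins 61 bases before the Pramel6 start and 62 bases before Crxos start 2, and 14.8% of 32817 promoters of this length held at least 1 of the 4 heptamers. That share is for any position, and the like position in these windows was not tested. The Dppa genes, Dppa2 among them, had no window in the promoter set. Crxos start 3 held a STAT match, TTCCTGGAA, which 7.01% of promoters held in some form. KLF matches stood before the Pramel6, Tcl1 and Crxos starts (start 2), and 28.1% of promoters held one. No ESRRB match was found in the windows of these genes, against 4.08% of promoters. The Pramel7 window held none of these letters and 1 CpG, while the Tcl1 window held 7 CpGs, against a median of 6 over all promoters. The window of Crxos start 1, which ends where the deposited gene model begins, also held none of these letters, while starts 2 and 3, which carry the Crxos matches, lie inside that model. RefSeq's Pramel7 and Tcl1 starts too lie inside the longer gene models of the deposited table. Matches are letters in a window and no measurement of binding.

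Trincr1, listed as Gm2694 on chromosome 8, was at 5.70 and 9.45 FPKM in wild-type samples in 2i+LIF and at 0.0754 and 0 FPKM in Trincr1-/- samples. In PD+LIF it was at 6.18 and 6.56 FPKM in wild type and at 1.38 and 0.746 FPKM in Trincr1-/- samples. Gm2694 thus remained measurable in Trincr1-/- ESCs in PD+LIF, where it was higher than in 2i+LIF (log2 fold change 0.98 ± 0.23, limma adjusted p = 0.0105). Replicates of a group correlated at r = 0.987 to 0.990 over genes, and the estimated depth was 10.2 to 14 M fragments per sample. ESC markers such as Pou5f1, Sox2 and Nanog summed to 1805 to 1845 FPKM over 8 genes in 2i+LIF, 1315 and 1326 FPKM in wild type in PD+LIF and 1192 and 1204 FPKM in Trincr1-/- in PD+LIF. Of these 8 genes, 4 were lower in Trincr1-/- ESCs in PD+LIF, against 5.77% of all tested genes. They were Esrrb (log2 fold change -0.57), Nanog (-0.47), Sox2 (-0.29) and Pou5f1 (-0.20). Another 2 were higher, against 6.29%, Lin28a (log2 fold change 0.61, limma adjusted p = 0.0037) and Sall4 (0.39, limma adjusted p = 0.00811). Fibroblast markers (6 genes) summed to 0.467 to 1.31 FPKM in 2i+LIF, 4.14 and 4.59 FPKM in wild type in PD+LIF and 6.40 and 5.56 FPKM in Trincr1-/- in PD+LIF. Most of the wild-type sum in PD+LIF was Thy1 (mean of 3.38 FPKM), which gave no call for the genotype there. Dcn was listed at 0 in every sample of 3 groups, while Col1a1 was higher in Trincr1-/- ESCs in PD+LIF (means of 0.409 and 1.88 FPKM, log2 fold change 1.03, limma adjusted p = 0.0037), with a difference between media of 1.11 (limma adjusted p = 0.028). Primitive endoderm markers (6 genes) summed to 1.04 to 1.44 FPKM in 2i+LIF and 4.31 to 5.89 FPKM in PD+LIF. Trophoblast markers (6 genes, most of it Tfap2c, which ESCs also express) summed to 13.8 to 21.0 FPKM in 2i+LIF and 46.0 to 60.3 FPKM in PD+LIF, with Elf5 at 0 to 0.102 FPKM in group means. Among them Hand1 was higher in Trincr1-/- ESCs in PD+LIF (means of 0.473 and 2.87 FPKM, log2 fold change 1.39, limma adjusted p = 0.00188), with a difference between media of 1.36 (limma adjusted p = 0.0231). Cdx2 was higher in Trincr1-/- ESCs in 2i+LIF (means of 0.746 and 3.02 FPKM, log2 fold change 1.19, limma adjusted p = 0.012). Its difference between media had the opposite sign to that of Hand1 (-1.11, limma adjusted p = 0.043). Without CHIR99021 Cdx2 fell in both genotypes, to a wild-type mean of 0.073 FPKM (log2 fold change -0.70, limma adjusted p = 0.00413). The Trincr1-/- mean of Cdx2 fell to 0.138 FPKM (log2 fold change -1.81, limma adjusted p = 5.15e-05). Krt7 rose between media in both genotypes, with wild-type means of 0.0688 and 6.18 FPKM and Trincr1-/- means of 0.123 and 6.82 FPKM. Markers of primed epiblast (5 genes, most of it Dnmt3b) summed to 43.2 to 48.6 FPKM in 2i+LIF, 113 and 133 FPKM in wild type in PD+LIF and 185 and 204 FPKM in Trincr1-/- in PD+LIF. For the genotype in PD+LIF, 2 of the 5 passed as higher, Dnmt3b among them, against 6.29% of all tested genes. The rest of that list gave no call there. The part of any of these lists in the changes below was not tested. In bulk RNA, fewer cells that express a gene and less RNA per cell cannot be told apart.

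Transcripts of 5 of the 8 genes have close copies elsewhere in the mouse genome, at 95% identity or more over at least 100 bases of NCBIM37. Such copies covered 98.2% of the Dppa5a transcript, 98.1% of Dppa3, 99.9% of Crxos, 93.2% of Dppa4 and 91.6% of Dppa2, so the authors' counting may have split or shared their reads. Pramel6, Pramel7 and Tcl1 had no such copy.

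Dppa5a stood far above the others. In wild-type ESCs in 2i+LIF it ranked 25 of 15430 genes by mean FPKM, at 1858 ± 74 FPKM (SD, n = 2). Crxos (rank 925, 89.8 ± 0.5 FPKM), Tcl1 (rank 1768, 50.2 ± 0.3), Dppa4 (rank 1913, 46.7 ± 0.4) and Dppa3 (rank 2283, 39.2 ± 6.9) formed a middle group. Dppa2 (rank 3339, 25.5 ± 0.9), Pramel6 (rank 5411, 12.7 ± 1.2) and Pramel7 (rank 7309, 6.85 ± 0.61) were lowest. The span between the highest and the lowest group mean differed widely, from 1.39-fold for Dppa4 and 2.02-fold for Dppa5a to 41.5-fold for Pramel7 and 46.8-fold for Crxos.

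**Figure D1:**
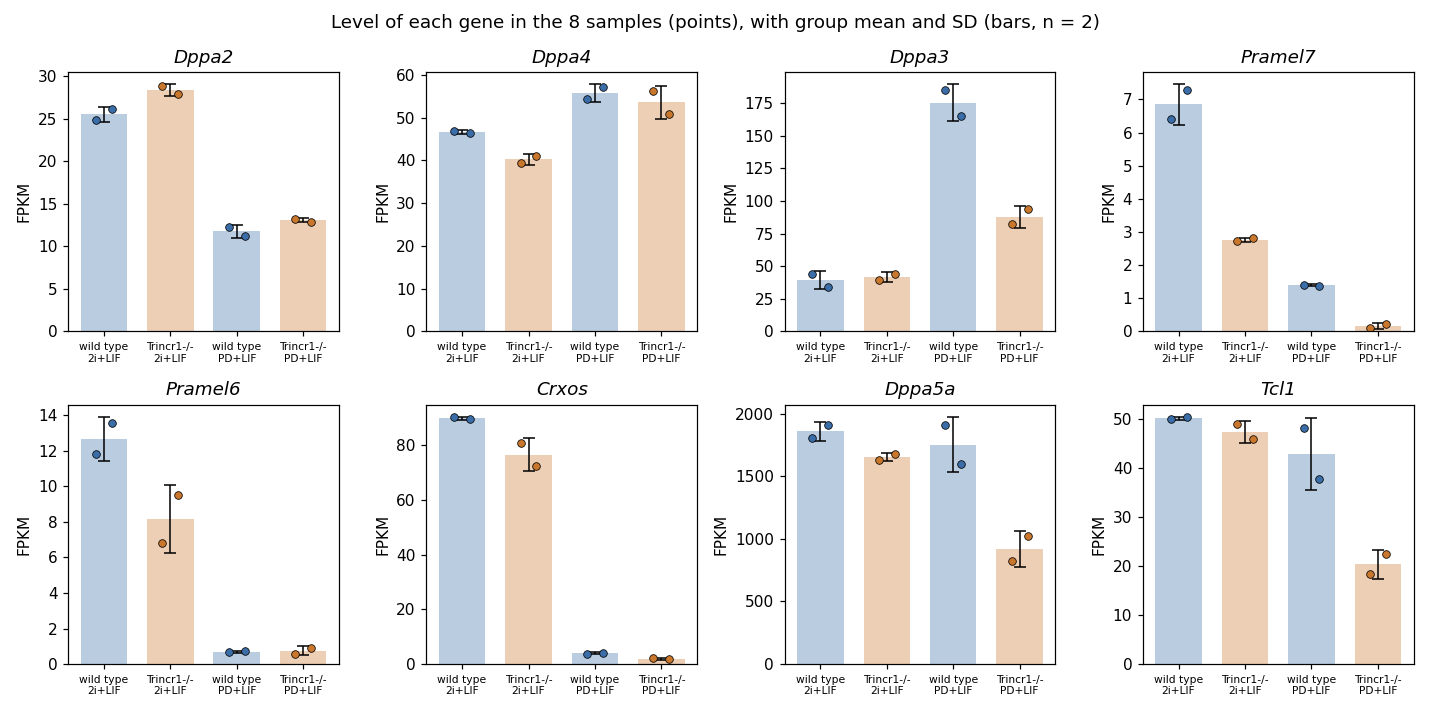
FPKM (vertical axes, linear, from 0) of the 8 genes in the 4 groups, with a point per sample, bars for the group mean and error bars for the SD (n = 2). Crxos and Pramel6 are near 0 in both PD+LIF groups, Dppa3 is highest in wild type in PD+LIF (175 FPKM), and Dppa5a and Tcl1 are lowest in Trincr1-/- ESCs in PD+LIF (922 and 20.4 FPKM).

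In wild-type ESCs Crxos, Pramel6, Pramel7 and Dppa2 were lower in PD+LIF than in 2i+LIF, and Dppa3 and Dppa4 were higher. So 4 genes fell, where 21.3% of all tested genes did, and 2 rose, where 30.9% of all tested genes did (limma, Benjamini-Hochberg adjusted p under 0.05). The median log2 fold change was -0.64 over the 8 genes and 0.08 over all genes tested. In Trincr1-/- ESCs all 8 passed the threshold: 6 fell, against 20.3% of all genes, and 2 rose, against 29.6%. The median there was -1.12 over the 8 genes and 0.07 over all.

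Among the chromatin pair, Dppa2 was at 24.9 and 26.1 FPKM in wild type in 2i+LIF and at 12.3 and 11.2 FPKM in PD+LIF. The groups did not overlap, and the log2 fold change was -1.06 ± 0.07 (SE, limma adjusted p = 2.84e-05). Dppa2 in Trincr1-/- ESCs was at 28.8 and 27.9 FPKM in 2i+LIF and at 13.2 and 12.9 FPKM in PD+LIF, with the same log2 fold change of -1.06 (adjusted p = 2.33e-05 by limma). Its neighbour Dppa4 moved the other way, and by little. Dppa4 was at 46.9 and 46.4 FPKM in wild type in 2i+LIF and at 54.3 and 57.2 FPKM in PD+LIF, a log2 fold change of 0.25 ± 0.06 (limma adjusted p = 0.0115), and that call was lost with median-of-ratios scaling (0.16, adjusted p = 0.0509) and without the second wild-type sample of either medium. In the knockout it was at 39.3 and 41.1 FPKM in 2i+LIF and at 56.3 and 50.8 FPKM in PD+LIF, for a log2 fold change of 0.40 ± 0.06 (limma adjusted p = 0.00142). The 2 neighbours thus changed in opposite directions between media in both genotypes.

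Dppa3 rose. In wild-type ESCs it was at 44.1 and 34.3 FPKM in 2i+LIF and at 185 and 165 FPKM in PD+LIF, 4.47-fold higher in the mean, with a log2 fold change of 2.14 ± 0.13 (limma adjusted p = 2.27e-05). In Trincr1-/- ESCs it was at 39.0 and 44.2 FPKM in 2i+LIF and at 82.0 and 93.9 FPKM in PD+LIF, 2.11-fold higher (log2 fold change 1.06 ± 0.13, limma adjusted p = 0.000481). All 4 PD+LIF samples lay above all 4 samples in 2i+LIF.

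Crxos had the widest range. It was at 90.2 and 89.5 FPKM in wild type in 2i+LIF and at 3.69 and 4.13 FPKM in PD+LIF, 23.0-fold lower (log2 fold change -4.21 ± 0.10, limma adjusted p = 1.98e-06). In the knockout it was at 80.8 and 72.2 FPKM in 2i+LIF and at 2.16 and 1.67 FPKM in PD+LIF, 39.9-fold lower (limma adjusted p = 7.91e-07). The neighbouring gene Crx, 2648 bases away, had group means of 0 to 0.0753 FPKM.

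The Pramel genes fell with Crxos. Pramel6 was at 11.8 and 13.6 FPKM in wild type in 2i+LIF and at 0.660 and 0.737 FPKM in PD+LIF, and its log2 fold change of -3.01 ± 0.17 passed the limma test at an adjusted p of 1.96e-05. In Trincr1-/- ESCs it was at 6.82 and 9.54 FPKM in 2i+LIF and at 0.585 and 0.928 FPKM in PD+LIF, for a log2 fold change of -2.38 ± 0.17 (limma adjusted p = 4.39e-05). Pramel7 was at 6.42 and 7.28 FPKM in wild type in 2i+LIF and at 1.41 and 1.37 FPKM in PD+LIF, 4.94-fold lower (log2 fold change -1.72 ± 0.12, limma adjusted p = 4e-05). In the knockout it was at 2.73 and 2.80 FPKM in 2i+LIF and at 0.103 and 0.227 FPKM in PD+LIF, or 16.7-fold lower. Both genes were lower in all 4 PD+LIF samples than in any sample in 2i+LIF. These fold changes on log2(FPKM + 1) understate the change at such low levels.

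Dppa5a and Tcl1 gave no call in wild type and fell in the knockout. Dppa5a was at 1805 and 1910 FPKM in wild type in 2i+LIF and at 1910 and 1597 FPKM in PD+LIF, and the samples overlapped (log2 fold change -0.09, 95% interval -0.36 to 0.18). In Trincr1-/- ESCs it was at 1629 and 1677 FPKM in 2i+LIF and at 820 and 1024 FPKM in PD+LIF, for a log2 fold change of -0.85 ± 0.11 (limma adjusted p = 0.000759). Tcl1 was at 50.0 and 50.4 FPKM in wild type in 2i+LIF and at 48.1 and 37.7 FPKM in PD+LIF (log2 fold change -0.23, 95% interval -0.53 to 0.07). The knockout had 49.0 and 45.9 FPKM in 2i+LIF and 18.3 and 22.4 FPKM in PD+LIF, for a log2 fold change of -1.19 ± 0.13 (limma adjusted p = 0.000254). For both genes the 2 Trincr1-/- samples in PD+LIF lay below the other 6 samples.

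**Figure D2:**
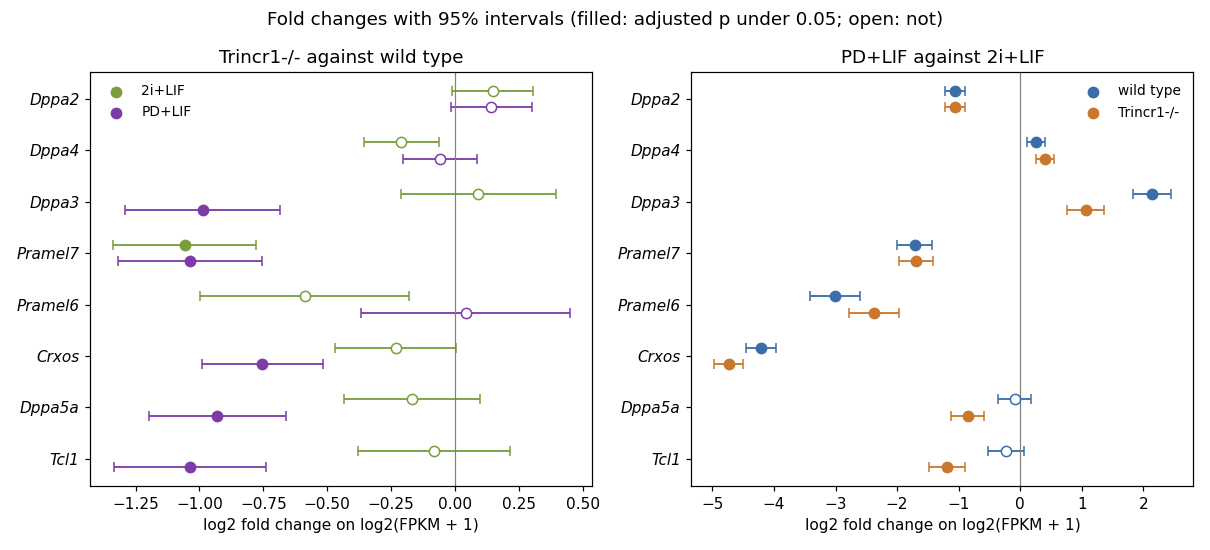
Log2 fold changes of log2(FPKM + 1) (horizontal axes) with 95% intervals for the 8 genes (rows), for the genotype in each medium (left) and the medium in each genotype (right), filled where the adjusted p was under 0.05. Pramel7 is filled in all 4 comparisons (-1.06 and -1.04 for the genotype), and Dppa5a and Tcl1 are open in every comparison without Trincr1-/- ESCs in PD+LIF.

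In 2i+LIF, the Trincr1-/- samples had less of 1 of the 8 genes, Pramel7, where 0.855% of all tested genes were lower, and none was higher, where 0.35% were. The median log2 fold change was -0.19 over the 8 genes and 0.00 over all tested. The Pramel7 samples, listed above, did not overlap between genotypes, and the Trincr1-/- mean was 40.4% of wild type (log2 fold change -1.06 ± 0.12, limma adjusted p = 0.0112). That call was lost with a pseudocount of 0.1 FPKM (-1.28, limma adjusted p = 0.0679), with only the 2i+LIF groups fitted (adjusted p = 0.16) and without any 1 of the 4 samples in 2i+LIF (0.0604 to 0.0849). Pramel6 on the same locus was at 64.5% of wild type with no overlap between samples (log2 fold change -0.59, 95% interval -0.996 to -0.18, limma adjusted p = 0.184), and did not pass the test. Dppa4 was at 86.2% of wild type (log2 fold change -0.21, limma adjusted p = 0.184). The other genes had limma adjusted p-values of 0.354 (Crxos) to 0.85 (Tcl1). By unadjusted limma p under 0.05 the count was 3 of 8, against 14.6% of all genes.

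In PD+LIF the Trincr1-/- samples had less of 5 of the 8 genes, Dppa3, Pramel7, Crxos, Dppa5a and Tcl1, where 5.77% of all tested genes were lower. None was higher, where 6.29% of all tested genes were. The median log2 fold change was -0.84 over the 8 genes and 0.01 over all genes tested. All 5 were at 52.6% of the wild-type mean or less, and in none did the samples of the genotypes overlap. Genes that did not pass, such as Dppa2 in PD+LIF and Tcl1 in 2i+LIF, had no such overlap either. The share of all genes without overlap is not given here, so a lack of overlap adds little to these calls. Tcl1 was at 47.4%, Crxos at 49.0%, Dppa3 at 50.2%, Dppa5a at 52.6% and Pramel7 at 11.9% of wild type. Their log2 fold changes were -1.04 ± 0.13 for Tcl1, -0.75 ± 0.10 for Crxos, -0.99 ± 0.13 for Dppa3, -0.93 ± 0.11 for Dppa5a and -1.04 ± 0.12 for Pramel7, with limma adjusted p-values of 0.0041 to 0.00681. These comparisons share the wild-type or knockout samples in PD+LIF with those of the media above. With only the PD+LIF groups fitted, Dppa3 and Pramel7 remained past the threshold and Dppa5a (0.0587), Tcl1 (0.0578) and Crxos (0.0719) did not. The Dppa3 call was lost without the first wild-type sample (0.0542) or the first Trincr1-/- sample (0.0601) in PD+LIF.

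Pramel7 in Trincr1-/- ESCs in PD+LIF rests on few reads. The steps between low FPKM values put its samples at about 2 and 5 fragments, and the wild-type samples in the same medium at about 32 and 26. The ratio of wild type to knockout from these summed fragments was 8.08, with an exact 95% interval of 3.68 to 21 that covers counting error alone. In 2i+LIF, 272 and 102 fragments gave a ratio of 2.48 (1.97 to 3.14). On log2(FPKM + 1) the effects in both media were nearly equal, while the log2 fold change in PD+LIF was -2.53 with a pseudocount of 0.1 FPKM.

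The chromatin pair and Pramel6 did not pass the test in PD+LIF. Dppa2 in Trincr1-/- samples was at 111% of wild type in both media (log2 fold changes 0.15 and 0.14, limma adjusted p = 0.38 and 0.222). Dppa4 was at 96.0% of wild type in PD+LIF, with overlapping samples and a 95% interval of -0.20 to 0.09 on the log2 scale. Pramel6 was at 108% of wild type (95% interval -0.37 to 0.45).

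The difference of the genotype effect between media was tested for each gene. Dppa3 passed, with a difference of -1.08 ± 0.18 (limma adjusted p = 0.0397), where 0.817% of all tested genes passed in that direction. Its samples in 2i+LIF overlapped between genotypes (log2 fold change 0.09), while those in PD+LIF did not. Without any 1 of the 8 samples the adjusted p was 0.0697 to 0.149. Tcl1 (-0.96 ± 0.18, limma adjusted p = 0.0511), Dppa5a (-0.76 ± 0.16, 0.0676) and Crxos (-0.52 ± 0.14, 0.114) did not pass. Pramel6 had a difference of 0.63 (95% interval 0.05 to 1.21, limma adjusted p = 0.224), and Pramel7 one of 0.02 (95% interval -0.37 to 0.42).

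The order of the 4 groups differed from gene to gene. Pramel7 and Crxos shared 1 order, with wild type in 2i+LIF highest, then Trincr1-/- in 2i+LIF, wild type in PD+LIF and Trincr1-/- in PD+LIF, and no neighbours in that order overlapped. Tcl1 had the same order of means, but its Trincr1-/- samples in 2i+LIF overlapped those of wild type in PD+LIF. For Pramel6 the 2 PD+LIF groups overlapped at the bottom, and for Dppa3 the 2 groups in 2i+LIF overlapped there. For Dppa4 the 2 PD+LIF groups overlapped at the top. For Dppa5a the wild-type groups of both media overlapped each other, wild type in PD+LIF overlapped Trincr1-/- in 2i+LIF, and Trincr1-/- in PD+LIF lay below all. Dppa2 had no overlap between neighbours, with each Trincr1-/- group above the wild-type group of its medium. Some of these steps did not pass the test for the genotype, among them Crxos in 2i+LIF (limma adjusted p = 0.354). Dppa2 passed in neither medium (limma adjusted p = 0.38 and 0.222). The share of all genes without such overlap is not given here, so these orders are descriptions.

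Over the 8 samples, log2(FPKM + 1) of Dppa5a and Tcl1 correlated at r = 0.981, Pramel6 and Crxos at 0.977, and Pramel6 and Pramel7 at 0.893. Dppa2 and Dppa4 correlated at -0.924. These are descriptions over samples that fall into 4 groups, and share library and medium. Among 12055 other genes with a mean of at least 1 FPKM, those most like each member by Pearson r over the same 8 samples were Gm13230, Ftsj3 and AI662270 for Dppa2 (0.997 to 0.998), Slc45a4, 4931406C07Rik and Trib2 for Dppa3 (0.993 to 0.995), and Pebp1, Bcorl1 and Ulbp1 for Dppa4 (0.983 to 0.994). Slc35f2, Dmd and Abcc4 were closest to Dppa5a (0.976 to 0.986), and Foxn2, Abcc4 and Ash2l to Tcl1 (0.984 to 0.992), so that Abcc4 appeared beside both. Cd3g, Tnfrsf8 and Isoc2a were closest to Pramel6 (0.994 to 0.995), Hap1, Wdr5 and Tuba3a to Pramel7 (0.995 in each case), and Ubxn2a, Gm7325 and Tdh to Crxos (0.998 to 0.999).

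Few relatives of the 8 genes were expressed. Of 17 other genes with Dppa, Pramel, Pramef or Tcl1b names, 5 passed the filter, and none passed the test for the genotype in either medium (median log2 fold change 0.08 in 2i+LIF and -0.10 in PD+LIF). Pramef12 was the most abundant, with group means of 16.9 to 24.2 FPKM, and Pramef17 fell in both genotypes without CHIR99021 (log2 fold changes -0.74 and -0.85), while Pramel1 rose in both (0.60 and 0.47). Between media 1 of the 5 rose and 1 fell in wild type, against 30.9% and 21.3% of all tested genes, and 1 rose and 3 fell in Trincr1-/- ESCs, against 29.6% and 20.3%.

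Among 16 naive pluripotency regulators, none passed the test for the genotype in 2i+LIF (median log2 fold change 0.01). In PD+LIF 7 fell, against 5.77% of all tested genes, and 1 rose, against 6.29%, with a median of -0.29. The gene that rose, Dnmt3l (0.37), is also in the DNA methylation list below and is counted there again. The largest of the changes were in Tfcp2l1 (-0.69 ± 0.07), Esrrb (-0.57 ± 0.06) and Fgf4 (-0.52 ± 0.05). Without CHIR99021, 13 fell and 2 rose in wild type, against 21.3% and 30.9% of all tested genes, and 15 fell and 1 rose in Trincr1-/- ESCs, against 20.3% and 29.6%, led in wild type by Tbx3 (-2.42), Tdh (-2.16) and Tfcp2l1 (-2.12). Crxos and Pramel6 had larger log2 fold changes than Tbx3 in wild type.

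The DNA methylation list held 12 genes, all tested. It covered Uhrf1, Dnmt1 and genes of the Cullin-2 ligase, around DPPA3 and PRAMEL7, and also de novo methylation genes and the Tet genes. None passed the test for the genotype in 2i+LIF, and 4 rose and 1 fell in PD+LIF (median 0.07), against 6.29% and 5.77% of all tested genes. De novo methyltransferase Dnmt3b rose by 0.83 ± 0.09 on the log2 scale (limma adjusted p = 0.00389), from a mean of 72.4 FPKM to one of 129 FPKM, and Tet3 (0.63) and Dnmt3l (0.37) rose too. Uhrf1, the target of both proteins, averaged 234 and 227 FPKM in wild-type and Trincr1-/- cells in 2i+LIF and 150 and 166 FPKM in PD+LIF, and it fell between the media in both genotypes (-0.64 and -0.45). Only RNA was measured, and neither UHRF1 protein nor methylation. Between media, 4 genes rose and 5 fell in each genotype, against 30.9% and 21.3% of all tested genes in wild type and 29.6% and 20.3% in Trincr1-/- ESCs, and Tet2, a 5-methylcytosine oxidase, changed most (-2.21 in wild type and -2.25 in Trincr1-/- ESCs).

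Of 15 germline genes known to be silenced by methylation, 11 were tested. None passed for the genotype in 2i+LIF, and in PD+LIF 1 of the 11 fell, Hormad1 (-0.85 ± 0.15, limma adjusted p = 0.0161), against 5.77% of all tested genes. Without CHIR99021, 5 rose and 4 fell in wild type, against 30.9% and 21.3% of all tested genes, and 4 rose and 3 fell in Trincr1-/- ESCs, against 29.6% and 20.3%, with Rpl10l (-2.19), Sycp3 (1.43) and Dazl (-1.20) first in wild type.

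Of the genes around TCL1, 13 of 14 AKT pathway genes were tested. None passed for the genotype in 2i+LIF, while in PD+LIF the PI3-kinase subunit gene Pik3cd fell (-0.75 ± 0.18) and Akt1 rose (0.30 ± 0.07), 1 each way, against 5.77% lower and 6.29% higher of all tested genes. Without CHIR99021, 8 rose and 2 fell in wild type, among them Eras (1.11) and Akt1 (0.81), which rose, against 30.9% higher and 21.3% lower of all tested genes. In Trincr1-/- ESCs 5 rose and 3 fell, against 29.6% and 20.3%. Dppa2 and Dppa4 are known activators of genes of the 2-cell embryo. Of 17 such genes with a value, 4 passed the filter, all of the Zscan4 family, with group means of 0 to 0.740 FPKM. None of the 4 passed for the genotype, and Zscan4c fell between media in Trincr1-/- ESCs (-0.67 ± 0.12).

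**Figure D3:**
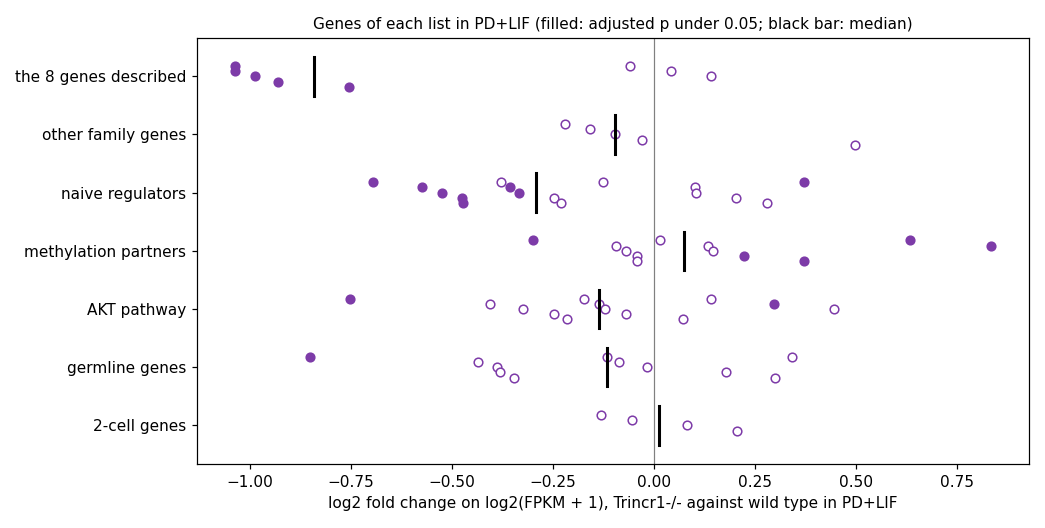
Log2 fold change of Trincr1-/- against wild type in PD+LIF (horizontal axis) for each tested gene of the lists (rows), filled where the adjusted p was under 0.05, with a black bar for each list's median. The medians are -0.84 for the 8 genes described, -0.29 for the naive regulators, 0.07 for the DNA methylation list (the row of methylation partners) and -0.14 for the AKT pathway.

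In the pulldown with FLAG-tagged TRIM71 and with the authors' scaling, none of the 6 genes with an input above 2 FPKM had an IP over input above 3, where 5.1% of 9651 transcripts did. The IP and the input have a single deposited value for each transcript, so none has an error. The input was selected on poly-T beads and the IP RNA was not, so a ratio also compares library preparations. Crxos stood highest, with 44 FPKM in the input, 53.3 FPKM in the IP and a ratio of 2.72 after the authors' scaling, rank 548 of 9651. With equal means of both libraries over the listed transcripts its ratio was 4.01, which is above 3, as were 7.79% of the 9651 transcripts with that scaling, and before any scaling its ratio was 1.21. Whether Crxos passed the ratio of 3 thus depended on the scaling. Among 634 transcripts within 1.2-fold of its input, the median ratio was 0.240.

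The other genes had ratios under 1 or were listed at 0. Dppa5a, at 3583 FPKM in the input, had 311 FPKM in the IP and a ratio of 0.195, and the median was 0.403 over the 9 transcripts of like input. Dppa4 had 23.1 FPKM in the input, 0.6 FPKM in the IP and a ratio of 0.0519. Tcl1 (47.6 FPKM in the input), Dppa3 (25.4) and Dppa2 (11.1) were listed at 0 in the IP. Transcripts of like input were listed at 0 in 27% of cases for Tcl1, 34.4% for Dppa3 and 51.2% for Dppa2, so a 0 is common at these levels. Pramel7 (1.7 FPKM) and Pramel6 (0.3 FPKM) had inputs under 2 FPKM and were also at 0.

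**Figure D4:**
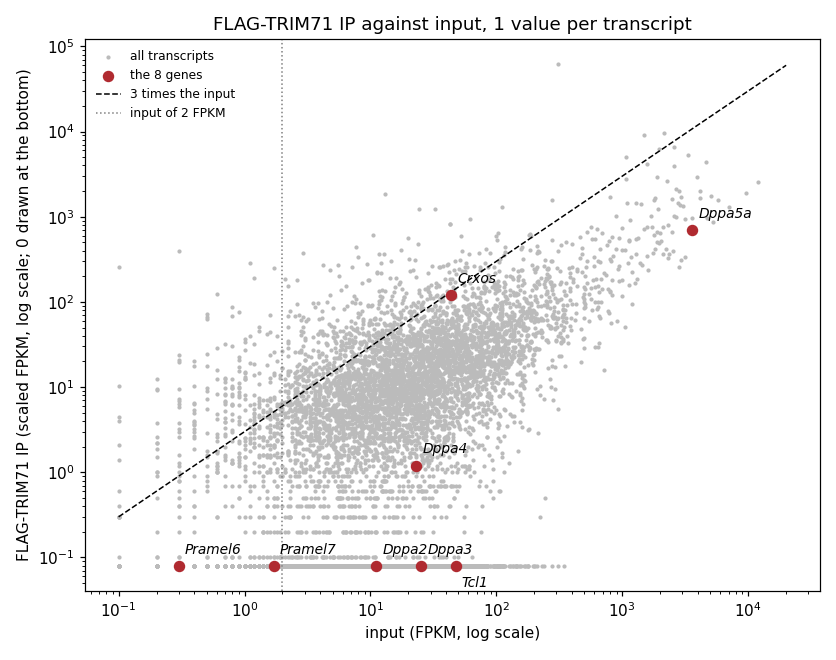
Scaled FPKM in the FLAG-TRIM71 IP (vertical, log scale, values of 0 drawn at the bottom) against FPKM in the input (horizontal, log scale), with 1 point per transcript and the 8 genes in red. Crxos lies just under the dashed line of 3 times the input (ratio 2.72), Dppa5a (0.195) and Dppa4 (0.0519) lie further below it, and 5 genes lie at 0.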

How the data were processed

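Reads were aligned by the authors with STAR 2.5.0 and quantified with Cufflinks 2.2.1. The authors deposited normalized FPKM per gene and sample, and mm9 is named in the processing notes, but gene positions fit GRCm38 (79.3% of 30328 genes within 1000 bases, against 4.84% of 32962 for NCBIM37), so GRCm38 coordinates are given, with 1 added to each start. For the pulldown, the authors deposited FPKM and a scaled score (scaled FPKM, with the IP multiplied by 2.25 where equal means need 3.31). A deposited column of enrichment folds was not used.

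The table held 41260 entries and 41204 genes after 1 entry per identifier was kept. FPKM sums were 497115 to 519651. Genes with a mean above 0.2 FPKM were compared on log2(FPKM + 1) with limma 3.58.1 (R 4.3.3), 4 groups in 1 fit, 4 residual degrees of freedom, a variance trend and Benjamini-Hochberg adjustment over 15430 genes, with a threshold of 0.05. Depth came from the smallest FPKM steps of genes with 1 transcript of 500 to 1500 bases. Depth of the pulldown libraries is unknown. Copies were searched with BLAST 2.17.0. Promoters came from a prepared set of RefSeq starts, and the set used held 4 of the 8 genes.

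Python 3.11.15, pandas, numpy, scipy and matplotlib served for the rest. All 8 genes are named, and of each list at most the 3 largest changes past the threshold (Pramef12, Uhrf1 and the marker genes were named after their values were seen). Values of 1 list gene are not reported here. Members and lists were chosen with earlier results of these data known. Alternatives covered pseudocount, filter, scaling, variance trend, groups fitted, a replicate block and leaving out each sample. The IP of cells with an empty vector was not used here, and replicates of the IP and input were not separable.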

Additional observations from a re-analysis of the deposited data

Results flagged for a closer look

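Dppa3 was singled out because its genotype effect differed between the media in a test of the difference itself. The log2 fold change of Trincr1-/- against wild type was 0.09 in 2i+LIF and -0.99 in PD+LIF, a difference of -1.08 ± 0.18 (limma, adjusted p = 0.0397). Both wild-type samples in PD+LIF (185 and 165 FPKM) lay above both Trincr1-/- samples (82.0 and 93.9 FPKM), and the samples in 2i+LIF overlapped. The adjusted p ranged from 0.0293 to 0.149 over 14 alternatives and passed in 3 of them. Dppa3 was not alone in this direction. Among the 16 naive pluripotency regulators, 3 passed in the same direction and none in the other, against 0.817% and 0.992% of all tested genes. They were Tfcp2l1 (-0.75), Esrrb (-0.67) and Tdh (-0.42). The primed epiblast marker Dnmt3b had a difference of the opposite sign (0.93, adjusted p = 0.0285 by limma). The part of these genes in the Dppa3 result was not tested.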

How the results depend on the processing

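All 8 genes passed the threshold between media in Trincr1-/- ESCs under all 15 alternatives. Between media in wild type, 5 to 7 passed with 1 sample left out. For the genotype in 2i+LIF the count of 1 became 0 with a pseudocount of 0.1 FPKM and with only the groups compared, and was 0 to 1 with 1 sample left out. For the genotype in PD+LIF the count of 5 became 2 with only the groups compared, and was 4 to 5 with 1 sample left out. For the difference between media the count of 1 became 0 with no filter, with no variance trend and with the replicate block, 2 (Dppa3 and Tcl1) with a mean of at least 1 FPKM, and 0 with any 1 sample left out. The cause was not tested, beyond that fits with fewer samples have fewer degrees of freedom.

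Replicate numbers did not pair the samples. Deviations of same-numbered samples from their group means correlated at -0.0595 to 0.0196, and no label ties the numbers together. With the replicate block the counts in the other 4 comparisons stayed at 1, 5, 6 and 8.

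Signs turned for values near 0. The difference between media for Dppa2 (-0.01) was 0.001 with median-of-ratios scaling and -0.068 to 0.055 with 1 sample left out. With 1 sample left out, the genotype effect in 2i+LIF was -0.085 to 0.269 for Dppa3, that in PD+LIF was -0.131 to 0.014 for Dppa4 and -0.10 to 0.18 for Pramel6, and the Dppa5a change between media in wild type was -0.22 to 0.04. The Pramel7 difference between media (0.02) was -1.25 with a pseudocount of 0.1 FPKM and -0.058 to 0.101 with 1 sample left out. Depth limits Pramel7 most, since few fragments carry its lowest values.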
